A study of Caenorhabditis elegans with 45 samples.

Results

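Nonsense-mediated decay (NMD) and the hypoxia pathway were crossed in the nematode Caenorhabditis elegans, and this account concerns 1 interaction between them: how the loss of the NMD factor SMG-2 changed the RNA differences that HIF-1 makes. The interaction of a gene is the log2 level in smg-2; egl-9 minus that in smg-2; egl-9 hif-1, less the log2 level in egl-9 minus that in egl-9 hif-1. Libraries were chosen by the genotype in their titles and by no measured value, which took 20 of the 45 libraries of the series, 5 for each of 4 genotypes. A positive value means that the HIF-1 difference was the higher one without SMG-2, through a larger rise or a smaller fall of RNA with HIF-1. A negative value means the reverse.

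Of the 4 genotypes, smg-2(r863); egl-9(sa307) is called the smg-2 double mutant below, and the strain that adds the allele hif-1(ia4) to it, smg-2; egl-9 hif-1, the smg-2 triple mutant. The 2 with NMD intact are egl-9(sa307) and egl-9(sa307) hif-1(ia4). All 4 carry egl-9(sa307), so none of them has an intact EGL-9. The triple mutant with smg-1(n6597), its double mutant with egl-9(sa307), the smg-1 and smg-2 single mutants and wild-type N2 serve as comparison only. Each library was polyA RNA of whole young adult hermaphrodites, a pool of 300 to 500 animals picked as L4 larvae and collected 6 h later, after growth on OP50 bacteria at 20 °C and 20% oxygen. Each genotype was a single strain, so the named mutations cannot be told apart from other differences between the strains, and p-values measure the spread between samples of a strain.

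EGL-9 is the prolyl hydroxylase that, in the presence of oxygen, marks the transcription factor HIF-1 for VHL-dependent degradation. In egl-9 mutants HIF-1 is therefore active at normal oxygen, and a hif-1 mutation on top removes that activity. HIF-1 targets in the worm include genes of hydrogen sulfide handling, of collagen hydroxylation and of its own negative regulation. SMG-2, the worm UPF1, is the RNA helicase at the core of NMD, which degrades mRNAs with premature stop codons, and SMG-1 is the kinase that phosphorylates it.

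Total counts of the 20 libraries lay between 9822412 and 32418868, with a median of 16149294, and the deepest library was smg-2 triple mutant replicate B. Of the genes in the table, 16053 of 46926 had enough counts to be tested. Values per library are CPM (counts scaled by library size), and a gene is called where the adjusted p is under 0.05 in edgeR's quasi-likelihood test over all genes. In the smg-1 triple mutant 1 library, replicate C, stood apart: the 8 listed HIF-1 targets summed to 234 CPM there, against a median of 82.0 CPM over the 5 libraries of that strain. This library is not among the 20, but it enters every value that compares SMG-2 with SMG-1. The total counts of that comparison, its counts on X and the HIF-1 targets given in it are shown with and without the library. Other values of the comparison include it unless stated.

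The mutated genes were examined first. hif-1 RNA stood at 168, 173, 166, 166 and 165 CPM in the smg-2 double mutant and at 352, 317, 392, 320 and 306 CPM in the smg-2 triple mutant. It stood at 162, 159, 142, 153 and 146 CPM in egl-9 and at 36, 26.2, 20.2, 26.4 and 15.8 CPM in egl-9 hif-1. The RNA of the mutated hif-1 gene was thus lowest in egl-9 hif-1 and highest in the smg-2 triple mutant, and no 2 groups overlapped. Its interaction was -3.63 ± 0.17 (log2 ± SE, adjusted p 5.91e-20 in edgeR). The counts cover the whole gene and do not show whether a functional product was made. The 8 listed HIF-1 targets summed to 2470 to 3260 CPM in the smg-2 double mutant and 62.6 to 79.6 CPM in the smg-2 triple mutant, and to 3190 to 4600 CPM in egl-9, against 65.9 to 88.9 CPM in egl-9 hif-1. egl-9 averaged 116 ± 4.04 CPM in the smg-2 double mutant, 22.1 ± 4.02 CPM in the smg-2 triple mutant, and 104 ± 7.62 CPM in egl-9, against 17.0 ± 3.48 CPM in egl-9 hif-1 (SD, n = 5 each). Its interaction of -0.22 ± 0.17 did not pass (adjusted p 0.417).

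The interaction was called for 3228 of 16053 genes (20.1%). It was positive for 2466 (15.4%) and negative for 762 (4.75%). At least 2-fold values were found for 701 positive genes (4.37%) and 422 negative genes (2.63%). The split between the directions moved with the scaling of the libraries. The median over all genes was 0.13 with TMM factors, 0.01 with DESeq2 size factors and -0.05 with upper quartile scaling. With DESeq2 size factors 1450 genes were positive and 1097 negative, with upper quartile scaling 1210 and 1318, with library totals 1307 and 1179, and with TMM factors from autosomal genes 1612 and 1084. Positive values of any list are therefore read against the median of 0.13, and the counts under the other scalings are given where they differ.

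Single libraries moved the counts as well. The number of positive genes was 1124 without smg-2 triple mutant replicate E, 1299 without its replicate B and 1371 without its replicate D. It was 1308, 1223 and 1178 without egl-9 hif-1 replicates C, D and E in turn, and the number of negative genes was 1247 and 1221 without replicates C and D of that strain. The 20 genes with the smallest p named below were called in the same direction in each of these fits. In these same fits the median interaction over all genes lay between -0.04 and 0, against 0.13 with all libraries. It was -0.03 also without N2 replicate C, smg-1 single mutant replicate A or C, or smg-2 single mutant replicate E. Without smg-2 single mutant replicate C or smg-1 triple mutant replicate C it was -0.01. These libraries are not among the 20 and enter the interaction only through the scaling, the filter and the shared spread. The part of a left-out library and that of the TMM scaling in these counts were not tested.

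Both differences that enter the interaction were broad. In the smg-2 double mutant, 4693 genes (29.2%) were higher and 4554 (28.4%) lower than in the smg-2 triple mutant. In egl-9, 3215 (20.0%) were higher and 4292 (26.7%) lower than in egl-9 hif-1. Among the 762 negative genes, 323 (42.4%) differed with HIF-1 only where SMG-2 was absent, 167 (21.9%) only where NMD was intact, 151 (19.8%) in both with the same sign and 107 (14%) in both with opposite signs. Among the 2466 positive genes, 1113 (45.1%) differed in both with the same sign and 853 (34.6%) without SMG-2 alone. Of the 652 called genes that were higher with HIF-1 in both, 577 had the larger difference without SMG-2. Of the 612 that were lower with HIF-1 in both, 536 had the smaller difference without SMG-2. These shares are those under TMM scaling, which puts the median above 0.

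**Figure D1:**
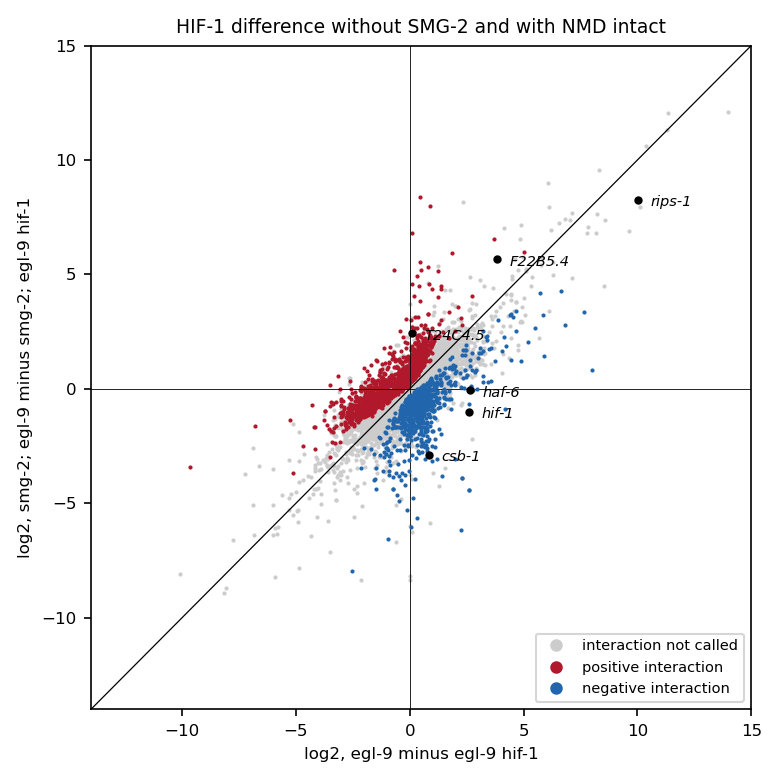
Difference made by HIF-1 in each tested gene, without SMG-2 on the y axis (smg-2; egl-9 minus smg-2; egl-9 hif-1, log2) and with NMD intact on the x axis (egl-9 minus egl-9 hif-1, log2). Red points have a called positive interaction and blue points a called negative one. The diagonal marks equal differences. hif-1 and csb-1 lie below it, with interactions of -3.63 and -3.75, and F22B5.4 and T24C4.5 above it, with 1.82 and 2.33. txdc-12.2 is not drawn, since it had 0 counts in 1 genotype.

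Read the other way, the interaction is the effect of losing SMG-2 with HIF-1 active minus that without HIF-1. The smg-2 double mutant had 3795 higher genes (23.6%) and 1550 lower genes (9.66%) than egl-9, and the smg-2 triple mutant had 4143 (25.8%) and 4168 (26.0%) than egl-9 hif-1. Of the 762 negative genes, 474 (62.2%) were called for loss of SMG-2 where HIF-1 was absent and not where it was active, and of the 2466 positive genes 1179 (47.8%).

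Of the 10 negative genes with the smallest p values 8 lie on chromosome X, and most of them were highest in the smg-2 triple mutant. lnp-1 (X 4588762 to 4590446 in WBcel235) encodes a lunapark homolog, a protein of endoplasmic reticulum junctions. It had 13.5, 14, 15.7, 13 and 16.1 CPM in the smg-2 double mutant and 86.3, 77.7, 77.2, 85.4 and 74.6 CPM in the smg-2 triple mutant. It had 14.2, 12.4, 15.4, 16.5 and 15.8 CPM in egl-9 and 14.9, 16.7, 15.8, 16.6 and 14.2 CPM in egl-9 hif-1. All libraries of the smg-2 triple mutant were high, and the other 3 genotypes overlapped. The interaction was -2.40 ± 0.15 (adjusted p 3.89e-15).

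csb-1 (X 15861294 to 15865918), the homolog of the Cockayne syndrome B protein of DNA repair, followed the same pattern with a wider spread. It had 13.2, 17.5, 12, 15 and 16.9 CPM in the smg-2 double mutant and between 86.9 and 131 CPM, with a median of 113 CPM, in the smg-2 triple mutant. It had 20.7, 14.2, 16.4, 21.4 and 19 CPM in egl-9 and 13.3, 10.3, 6.90, 12.5 and 7.73 CPM in egl-9 hif-1. Every library of the smg-2 triple mutant was above all others, and the smg-2 double mutant overlapped with egl-9. The interaction was -3.75 ± 0.27 (adjusted p 1.24e-13). F53H4.4 (X 15866387 to 15868768) averaged 16.7 ± 0.885 CPM in the smg-2 triple mutant and between 1.53 and 1.88 CPM in the other genotypes, with an interaction of -2.90 ± 0.21 (adjusted p 9.36e-14).

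4 further X-linked genes were named by the rule. fis-2, a homolog of the mitochondrial fission factor FIS1, had 59.1 ± 6.00 CPM in the smg-2 triple mutant and between 12.8 and 16.6 CPM in the other genotypes (interaction -2.06 ± 0.15, adjusted p 2.25e-13). C27C12.1 had 64.3 ± 9.67 CPM there and between 4.61 and 9.47 CPM elsewhere (-3.31 ± 0.23, adjusted p 3.94e-14), and B0416.5 had a mean of 239 CPM there and between 99.2 and 110 CPM elsewhere (-1.21 ± 0.09, adjusted p 3.16e-13). gakh-1, the homolog of the cyclin G-associated kinase, differed in both HIF-1 comparisons with opposite signs. It averaged 14.7 ± 0.674 CPM in the smg-2 double mutant, 34.4 ± 2.93 CPM in the smg-2 triple mutant, and 14.7 ± 1.03 CPM in egl-9, against 8 ± 0.771 CPM in egl-9 hif-1 (interaction -2.11 ± 0.13, adjusted p 6.93e-16). The annotated exons of fis-2 overlap those of ksr-1 and those of C27C12.1 overlap acd-3. Whether strand was used in counting is not given in the sources used here, so these 2 values are uncertain, as are those of the other overlapping genes pointed out below.

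**Figure D2:**
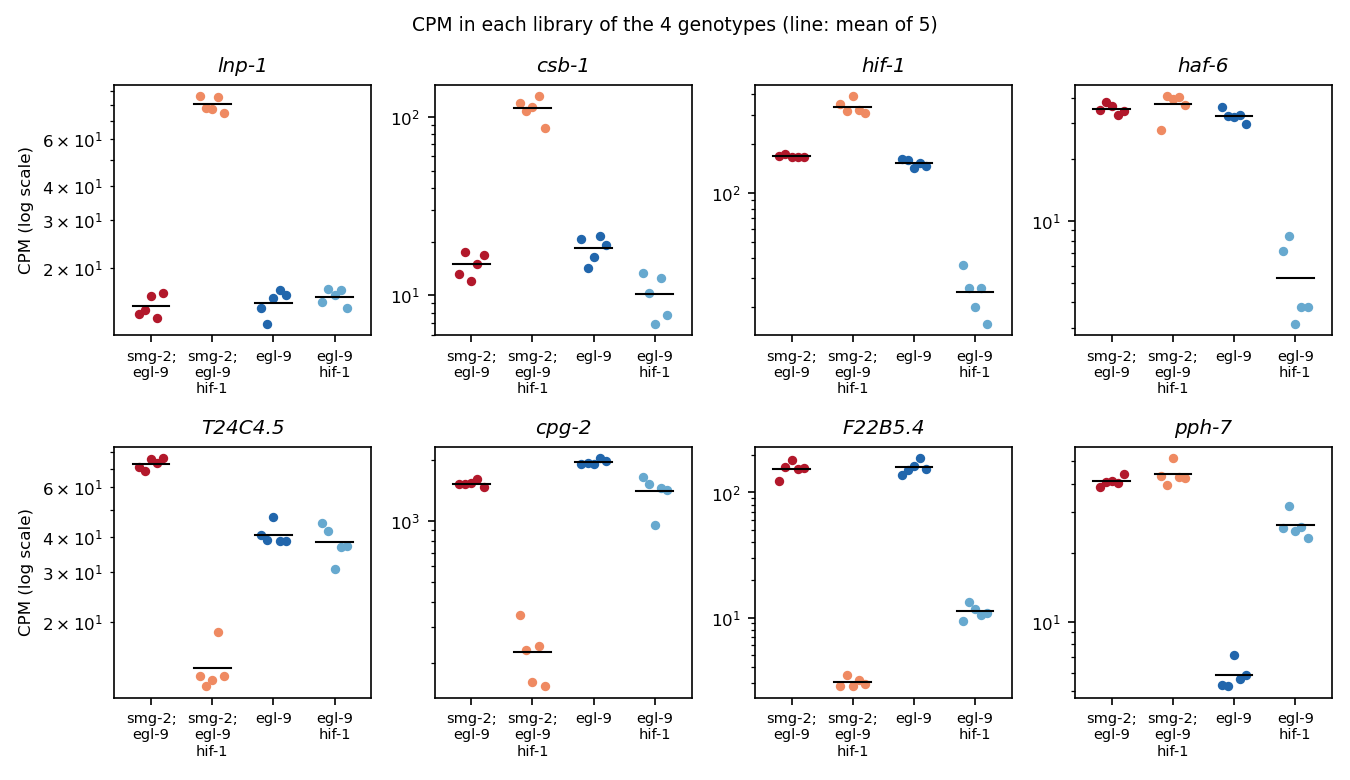
CPM on a log axis in each of the 20 libraries for 8 genes, with the smg-2 double mutant and the smg-2 triple mutant left of egl-9 and egl-9 hif-1. Points are libraries and lines are means of 5. lnp-1 and csb-1 are high in the smg-2 triple mutant alone, T24C4.5 and cpg-2 are lowest there, hif-1 and haf-6 are lowest in egl-9 hif-1, and pph-7 is lowest in egl-9.

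A different pattern was found in txdc-12.2 (X 2074450 to 2075944), which encodes a thioredoxin-domain protein and had the smallest p of all named genes. It had 0 counts in all 5 libraries of the smg-2 double mutant. It had 57.5, 41.9, 41.2, 40.8 and 43.2 CPM in the smg-2 triple mutant, 27.2, 34.2, 24.1, 30.7 and 25.9 CPM in egl-9 and 31.1, 39.1, 44.8, 47.2 and 46.4 CPM in egl-9 hif-1. With a floor of 3 counts per library, it was at least 264-fold lower in the smg-2 double mutant than in the smg-2 triple mutant, and at least 167-fold lower than in egl-9. It was the only tested gene at the floor in 1 of the 4 genotypes with a mean of at least 5 CPM in each of the other 3. Its neighbour acl-4 averaged 51.1 CPM in the smg-2 double mutant, 92.6 CPM in the smg-2 triple mutant, and 52.9 CPM in egl-9, against 60.9 CPM in egl-9 hif-1. The gene averaged 37.2 CPM in the smg-2 single mutant and 35.1 CPM in the smg-1 double mutant, and its lowest mean in the other 8 genotypes was the 28.4 CPM of egl-9.

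haf-6 (I 1162880 to 1175809), a half-molecule ABC transporter gene that ends just before smg-2 begins, differed in egl-9 hif-1. It had 34.8, 38.4, 36.6, 33.1 and 34.4 CPM in the smg-2 double mutant and 28.0, 40.9, 39.7, 40.6 and 36.8 CPM in the smg-2 triple mutant. It had 36, 32.6, 32.4, 32.9 and 29.8 CPM in egl-9 and 7.15, 8.45, 3.14, 3.81 and 3.80 CPM in egl-9 hif-1. The egl-9 hif-1 libraries lay below all others, and the other genotypes overlapped (interaction -2.70 ± 0.20, adjusted p 1.23e-13). smg-2 itself averaged 88.4 CPM in the smg-2 double mutant, 59.6 CPM in the smg-2 triple mutant, and 90.4 CPM in egl-9, against 92.0 CPM in egl-9 hif-1. Its interaction of 0.59 ± 0.19 passed (adjusted p 0.0246) but did not with DESeq2 size factors (0.47, adjusted p 0.0983). haf-6 shares annotated exon sequence with Y48G8AL.7.

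Chromosome X held 271 of the 762 negative genes (35.6%), and 13.9% of the tested genes. On X 12.1% of 2231 genes were negative and 56 (2.51%) positive. On the autosomes between 2.10% and 4.99% of the genes of a chromosome were negative and between 12.8% and 21% positive. The median interaction was -0.12 on X and 0.17 over the autosomes. Other scalings moved both medians together and left X lower, with 375 negative and 35 positive X genes under DESeq2 size factors. Without each of the 20 libraries in turn, between 248 and 406 X genes were negative.

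**Figure D3:**
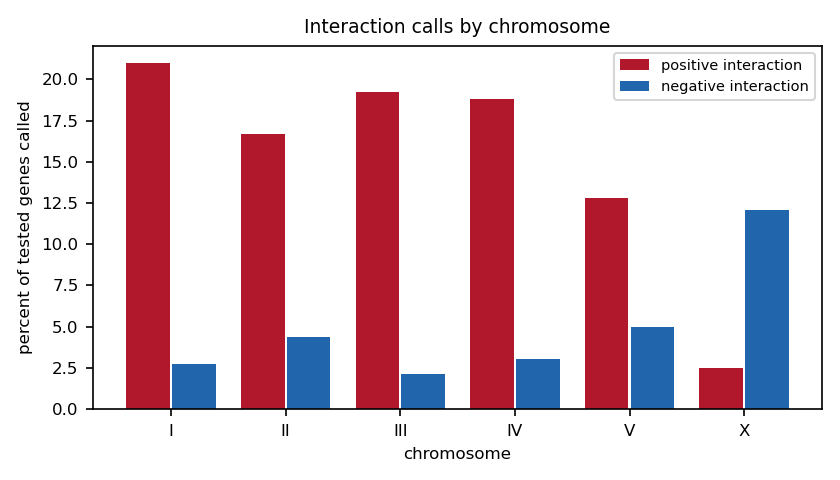
Share of the tested genes of each chromosome with a called interaction (%), positive and negative calls as separate bars. The negative share is 12.1% on X and at most 4.99% on an autosome, and the positive share is 2.51% on X and at least 12.8% on an autosome.

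The share of all counts that came from X-linked genes was read in each library, with the vitellogenin genes left out because most of them are X-linked and abundant. It lay between 7.29% and 7.95% in the smg-2 double mutant, between 9.63% and 10.1% in the smg-2 triple mutant, between 6.68% and 7.03% in egl-9 and between 6.97% and 8.07% in egl-9 hif-1. The smg-2 triple mutant was above all libraries of the other 8 genotypes, whose highest value was 8.69% in smg-1 single mutant replicate C. The median log2 CPM of X genes minus that of autosomal genes ordered the genotypes differently. By this measure the smg-2 double mutant lay between -0.828 and -0.727, the smg-2 triple mutant between -0.705 and -0.590, egl-9 between -0.809 and -0.636 and egl-9 hif-1 between -1.017 and -0.896, so the smg-2 triple mutant overlapped with egl-9. X-linked genes are known to be expressed less in the germline than autosomal genes, and the levels of germline genes in the same libraries are given next. Their part in the X-linked values was not tested.

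**Figure D4:**
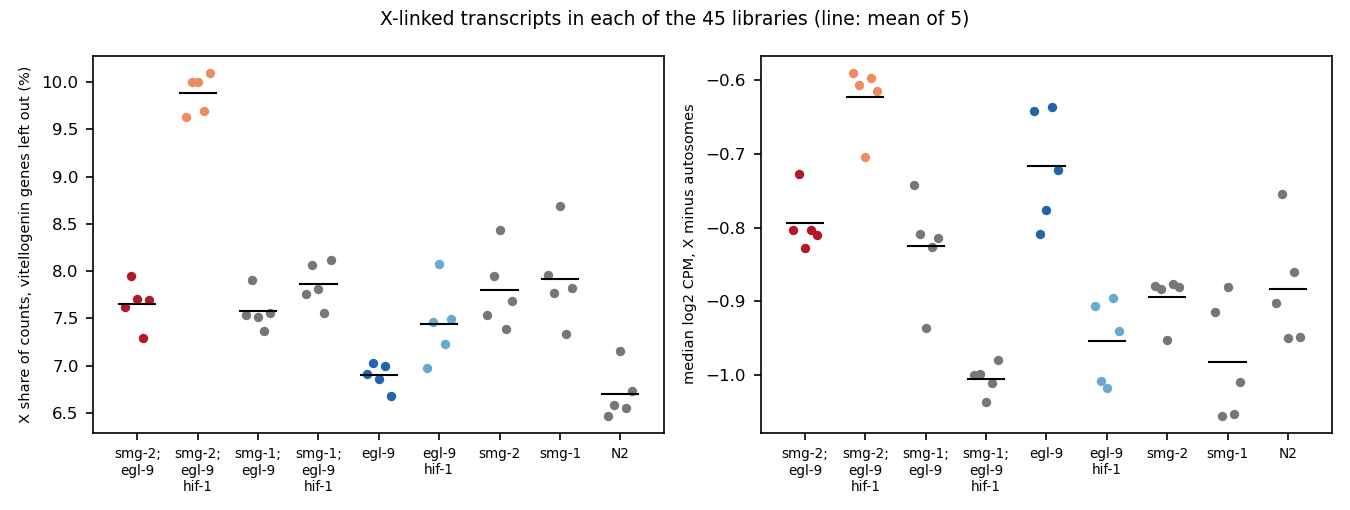
X-linked transcripts in the 45 libraries of 9 genotypes, as the share of counts from X-linked genes other than vitellogenin genes (left, %) and as the median log2 CPM of X genes minus that of autosomal genes (right). Points are libraries and lines are means of 5. On the left the smg-2 triple mutant lies between 9.63% and 10.1% and the highest other library at 8.69%. On the right its range overlaps that of egl-9.

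Genes of the oocyte and eggshell, taken as a sum, were lower in the smg-2 triple mutant than in any of the other 3 genotypes. Of 15 listed markers 12 had a positive interaction and 0 a negative one (80.0%, against 15.4% of all genes), with a median of 1.06. Their summed level was 9410 to 10700 CPM in the smg-2 double mutant, 3100 to 4530 CPM in the smg-2 triple mutant, and 11500 to 12500 CPM in egl-9, against 5830 to 10900 CPM in egl-9 hif-1. The groups with SMG-2 absent did not overlap, nor did egl-9 and egl-9 hif-1. Under the other scalings 11 or 12 were positive and 1 or 2 negative, and without each of the 20 libraries in turn 10 to 13 were positive. In whole worms fewer germ cells and less RNA per germ cell cannot be told apart.

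cpg-2 (III 7102092 to 7103990), which encodes a chondroitin proteoglycan of the eggshell, had the largest value of the list. It had 1530, 1520, 1540, 1610 and 1480 CPM in the smg-2 double mutant and 344, 230, 161, 243 and 153 CPM in the smg-2 triple mutant. It had 1920, 1930, 1920, 2050 and 1980 CPM in egl-9 and 1650, 1530, 959, 1460 and 1430 CPM in egl-9 hif-1. The smg-2 triple mutant lay below all other libraries, and egl-9 above egl-9 hif-1 with no overlap (2.28 ± 0.28, adjusted p 5.87e-08). egg-1, which shares exon sequence with B0244.9, and egg-2, receptor-like proteins of the oocyte surface needed for fertilization, had interactions of 1.34 ± 0.23 and 1.27 ± 0.23. rme-2, the yolk receptor of oocytes, had 706 ± 46.5 CPM in the smg-2 double mutant, 245 ± 45.5 CPM in the smg-2 triple mutant, and 870 ± 47.0 CPM in egl-9, against 685 ± 156 CPM in egl-9 hif-1 (1.19 ± 0.21, adjusted p 5.63e-05). lin-41, perm-2 and perm-4 did not pass, with values of 0.64 ± 0.27, -0.28 ± 0.18 and -0.30 ± 0.15.

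Other germline genes had smaller values. Of 14 listed genes of the germline and of meiotic chromosomes 6 were positive (42.9%, against 15.4% of all genes) and 0 negative (against 4.75%). Their median was 0.41, against 0.13 for all genes. Under the other scalings 3 or 4 were positive, where between 1210 and 1612 of all 16053 genes were. gld-1, a translational repressor of the germline, averaged 782 ± 28.6 CPM in the smg-2 double mutant, 382 ± 57.8 CPM in the smg-2 triple mutant, and 920 ± 26.1 CPM in egl-9, against 851 ± 104 CPM in egl-9 hif-1 (0.92 ± 0.14, adjusted p 6.79e-06). pgl-1, a P granule component, had an interaction of 0.67 ± 0.10 and htp-3, a chromosome axis protein, of 0.71 ± 0.11. Of the 8 listed embryo markers 2 had enough counts to be tested, and the Caudal homeobox gene pal-1 was positive (1.21 ± 0.21, adjusted p 3.96e-05), with a mean of 32.6 CPM in the smg-2 triple mutant and between 96.7 and 129 CPM in the other genotypes. pal-1 shares exon sequence with metl-5.

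The major sperm protein genes also had positive values, but from another arrangement of the levels. Of 29 tested msp genes 18 were positive (62.1%, against 15.4% of all genes) and 0 negative, with a median of 0.84, and between 5 and 14 were positive under the other scalings. They summed to 1070 to 1370 CPM in the smg-2 double mutant, 1460 to 2450 CPM in the smg-2 triple mutant, and 842 to 1680 CPM in egl-9, against 2650 to 4270 CPM in egl-9 hif-1. The sum was thus lower with HIF-1 in both backgrounds, with the smaller difference without SMG-2. msp genes are nearly identical copies, and reads can be split between them. Of the 8 other sperm markers 6 were positive, 3 under the other scalings. comp-1, a sperm competition gene, had 8.19 CPM in the smg-2 double mutant, 13.1 CPM in the smg-2 triple mutant, and 5.96 CPM in egl-9, against 22.5 CPM in egl-9 hif-1 (1.23 ± 0.28, adjusted p 0.00121).

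Few markers of other tissues were called. Of the listed markers of body wall muscle (6), neurons (8), epidermis (7) and larval molt (7), 0 were called by edgeR under any of the 5 scalings, and 0 by DESeq2 or limma. At an unadjusted p under 0.05 in edgeR 1 gene passed, a molt marker. The median interaction was 0.07 for the muscle, 0.01 for the neuron, -0.35 for the epidermis and -0.17 for the molt markers, against 0.13 for all genes. Among 6 intestinal markers the esterase gene ges-1 was negative (-0.46 ± 0.16, adjusted p 0.0338) and the actin gene act-5 positive (0.56 ± 0.20, adjusted p 0.0426). act-5 passed under TMM scaling alone, and both calls were lost without some single libraries, with an adjusted p of up to 0.111 for ges-1 (without egl-9 replicate B) and 0.413 for act-5 (without egl-9 hif-1 replicate C). The 6 vitellogenin genes summed to 39600 to 48400 CPM in the smg-2 double mutant, 52500 to 74400 CPM in the smg-2 triple mutant, and 35700 to 45900 CPM in egl-9, against 36600 to 65600 CPM in egl-9 hif-1. vit-3 was called (-0.68 ± 0.24, adjusted p 0.0438), and this call too was lost without some single libraries, with an adjusted p of up to 0.0884 (without egl-9 replicate A).

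The positive genes with the smallest p values were also mostly lowest in the smg-2 triple mutant. T24C4.5 (III 877435 to 879734) had 70.7, 68.4, 75.4, 73.0 and 76.2 CPM in the smg-2 double mutant and 12.8, 11.8, 12.4, 18.4 and 12.8 CPM in the smg-2 triple mutant. It had 40.5, 38.9, 47.0, 38.6 and 38.8 CPM in egl-9 and 44.7, 42.1, 30.8, 36.9 and 37.2 CPM in egl-9 hif-1. The groups with NMD intact overlapped, the smg-2 double mutant lay above them and the smg-2 triple mutant below (2.33 ± 0.16, adjusted p 6.90e-14). wht-7, a White-type ABC transporter gene, averaged 60.4 ± 3.79 CPM in the smg-2 double mutant, 16.2 ± 0.624 CPM in the smg-2 triple mutant, and 74.0 ± 5.38 CPM in egl-9, against 55.1 ± 5.02 CPM in egl-9 hif-1 (1.47 ± 0.11, adjusted p 7.41e-14). tofu-2, a gene of piRNA biogenesis, averaged 57.5 ± 4.30 CPM in the smg-2 double mutant, 14.4 ± 1.76 CPM in the smg-2 triple mutant, and 69.9 ± 7.20 CPM in egl-9, against 76.7 ± 7.05 CPM in egl-9 hif-1 (2.13 ± 0.16, adjusted p 4.13e-13).

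C50C3.1, Y49F6B.9, anat-1 and the pseudogene WBGene00045175 shared this arrangement, with interactions of 2.30, 2.78, 1.63 and 2.93. The exons of C50C3.1 overlap unc-36 and those of anat-1 overlap dyci-1, so both are uncertain. In 3 of the 10 positive genes a different genotype stood apart. rfth-1 was highest in the smg-2 double mutant, at a mean of 79.0 CPM, with 29.6 CPM in the smg-2 triple mutant, and 18.3 CPM in egl-9, against 19.5 CPM in egl-9 hif-1 (1.51 ± 0.13). ilys-5, an invertebrate-type lysozyme gene on X, averaged 224 ± 34.7 CPM in the smg-2 double mutant, 371 ± 49.3 CPM in the smg-2 triple mutant, and 67.1 ± 14.6 CPM in egl-9, against 553 ± 68.2 CPM in egl-9 hif-1 (2.31 ± 0.17, adjusted p 1.48e-13). pph-7 was lowest in egl-9, with 5.32, 5.23, 7.13, 5.61 and 5.85 CPM, and its means were 41.0 CPM in the smg-2 double mutant, 43.8 CPM in the smg-2 triple mutant and 26.3 CPM in egl-9 hif-1 (2.07 ± 0.16, adjusted p 4.13e-13). pph-7 shares exon sequence with parp-1.

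HIF-1 targets were far higher with HIF-1 in both backgrounds, and their interactions had no common sign. Of the 8 listed targets all 8 were called higher in the smg-2 double mutant than in the smg-2 triple mutant, against 29.2% of all genes. All 8 were also called higher in egl-9 than in egl-9 hif-1, against 20.0% of all genes. For the interaction 2 were positive and 2 negative, with a median of -0.93, and under each of the other scalings 3 were negative and 1 or 2 positive. F22B5.4 (II 8449710 to 8452742) was positive. It had 123, 160, 182, 153 and 158 CPM in the smg-2 double mutant and 2.83, 3.46, 2.84, 3.16 and 2.95 CPM in the smg-2 triple mutant. It had 137, 152, 163, 188 and 155 CPM in egl-9 and 9.35, 13.4, 11.8, 10.5 and 10.9 CPM in egl-9 hif-1. With HIF-1 active the groups overlapped, and without HIF-1 the smg-2 triple mutant was lower in every library (1.82 ± 0.29, adjusted p 7.48e-06).

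rhy-1, which encodes an acyltransferase-like inhibitor of HIF-1, was also positive. It averaged 607 ± 49.4 CPM in the smg-2 double mutant, 9.49 ± 2.89 CPM in the smg-2 triple mutant, and 623 ± 70.7 CPM in egl-9, against 19.2 ± 5.08 CPM in egl-9 hif-1, and the groups without HIF-1 overlapped. Its interaction of 0.98 ± 0.30 passed (adjusted p 0.0165), but not with upper quartile scaling (0.80, adjusted p 0.0597), nor without egl-9 hif-1 replicate E (0.71, adjusted p 0.129). It was also lost without egl-9 hif-1 replicate D (adjusted p 0.0742) and without smg-2 triple mutant replicates B (adjusted p 0.0684) or E (adjusted p 0.0995). In these fits without 1 library the median over all genes was lower too, between -0.03 and 0, against 0.13. rhy-1 shares exon sequence with W07A12.8.

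cyp-36A1 (I 8341682 to 8346023), a cytochrome P450 gene, was negative. It had 27.4, 28.8, 29.5, 29.8 and 27.9 CPM in the smg-2 double mutant and 10.9, 9.99, 9.28, 10.9 and 7.24 CPM in the smg-2 triple mutant. It had 76.7, 65.8, 74.8, 62.8 and 56.0 CPM in egl-9 and 7.33, 7.59, 8.55, 7.48 and 7.24 CPM in egl-9 hif-1. The smg-2 double mutant was below egl-9 in every library, and the groups without HIF-1 overlapped (-1.57 ± 0.16, adjusted p 7.49e-10). phy-2, a collagen prolyl 4-hydroxylase subunit, averaged 164 ± 16.9 CPM in the smg-2 double mutant, 33.1 ± 2.10 CPM in the smg-2 triple mutant, and 223 ± 41.2 CPM in egl-9, against 21.1 ± 4.48 CPM in egl-9 hif-1 (-1.09 ± 0.18, adjusted p 1.76e-05). cyp-36A1 shares exon sequence with figo-1.

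The other 4 targets did not pass in edgeR with TMM scaling and all 45 libraries, but 3 of them did in other fits. sqrd-1, the sulfide quinone oxidoreductase, averaged 249 ± 27.3 CPM in the smg-2 double mutant, 1.11 ± 0.366 CPM in the smg-2 triple mutant, and 590 ± 59.9 CPM in egl-9, against 0.500 ± 0.213 CPM in egl-9 hif-1 (-2.16 ± 0.97, adjusted p 0.114). nhr-57, a nuclear hormone receptor, averaged 248 ± 11.7 CPM in the smg-2 double mutant, 5.44 ± 0.801 CPM in the smg-2 triple mutant, and 202 ± 14.6 CPM in egl-9, against 2.58 ± 0.464 CPM in egl-9 hif-1 (-0.76 ± 0.31, adjusted p 0.0709). nhr-57 passed with each of the other 4 scalings (adjusted p between 0.0356 and 0.0487) and with DESeq2's own test (adjusted p 0.0269), and sqrd-1 with that test (adjusted p 0.026) and with limma (adjusted p 0.00538). The model estimates each gene's spread over all 45 libraries, which include the smg-1 triple mutant library that stands apart. With the 20 libraries alone in the model, sqrd-1 (-2.16, adjusted p 7.10e-05) and nhr-57 (-0.75, adjusted p 0.00145) passed, while cysl-2, a cyanoalanine synthase, did not pass in either (0.69 ± 0.51, adjusted p 0.372, and 0.0599 with the 20 libraries). gst-19, a glutathione S-transferase gene, averaged 80.6 CPM in the smg-2 double mutant and 290 CPM in egl-9. It had 1 count over the 5 libraries of the smg-2 triple mutant and 1 over those of egl-9 hif-1, so its fold cannot be given, though limma on the deposited log2 values called a negative interaction (adjusted p 0.0023). nhr-57 shares exon sequence with lgc-1, and cysl-2 with vnut-1.

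In hydrogen sulfide and cysteine metabolism, 7 of 20 listed genes were negative (35.0%, against 4.75% of all genes) and 2 positive, with a median of -0.39. rips-1, a HIF-1-induced methyltransferase, had 398, 501, 467, 431 and 426 CPM in the smg-2 double mutant and 1.64, 1.17, 1.42, 1.62 and 1.62 CPM in the smg-2 triple mutant. It had 1350, 1230, 1030, 1570 and 1080 CPM in egl-9 and 0.550, 0.742, 1.57, 1.1 and 1.86 CPM in egl-9 hif-1. The groups without HIF-1 overlapped and those with HIF-1 did not (-1.78 ± 0.38, adjusted p 7.39e-04). mpst-3, a mercaptopyruvate sulfurtransferase gene, averaged 226 ± 15.3 CPM in the smg-2 double mutant, 23.4 ± 2.78 CPM in the smg-2 triple mutant, and 489 ± 79.7 CPM in egl-9, against 22.6 ± 1.63 CPM in egl-9 hif-1 (-1.16 ± 0.15, adjusted p 2.13e-07). cysl-1, whose product senses sulfide and binds EGL-9, was negative as well (-0.85 ± 0.19, adjusted p 0.00114). cth-1, a cystathionine gamma-lyase, was lower with HIF-1, at 8.56 ± 2.21 CPM in the smg-2 double mutant, 19.9 ± 3.18 CPM in the smg-2 triple mutant, and 3.85 ± 1.27 CPM in egl-9, against 25.9 ± 10.4 CPM in egl-9 hif-1 (1.54 ± 0.33, adjusted p 6.79e-04). In all these genes the smaller HIF-1 difference was that without SMG-2. rips-1 shares exon sequence with cysl-3.

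Genes were also grouped by libraries outside the 4 genotypes. The HIF-1 classes come from the smg-1 double mutant against the smg-1 triple mutant, at 2-fold and an adjusted p under 0.05. Of 1744 HIF-1-repressed genes (10.9% of all) 461 were positive (26.4%) and 34 negative, with a median of 0.65. Of 1026 HIF-1-induced genes (6.39% of all) 136 were negative (13.3%) and 55 positive, with a median of -0.33, so at the median both classes had smaller HIF-1 differences without SMG-2 than with NMD intact. Without the 2-fold limit the 4129 HIF-1-induced genes (25.7% of all) had 987 positive and 328 negative values and a median of 0.19. That split was 530 and 431 with DESeq2 size factors, 540 and 510 with upper quartile scaling and 527 and 471 with library totals, with medians of 0.06, 0 and 0.04. With the 2-fold limit the median of the induced genes was -0.45, -0.50 and -0.46 under these scalings. These classes use the smg-1 triple mutant library that stands apart. Without it 168 HIF-1-induced genes were negative and 35 positive, and 316 HIF-1-repressed genes were positive and 50 negative. In that fit the median interaction over all genes was -0.01, against 0.13 with it. With the library kept and DESeq2 size factors, 157 HIF-1-induced genes were negative and 33 positive, and 328 HIF-1-repressed genes were positive and 44 negative. The parts of the library and of the scaling were not tested. Of 1946 NMD-sensitive genes, which exceed N2 by 2-fold or more in the smg-1 single mutant (14.9% of all genes) and in the smg-2 single mutant (14.2%), 213 were positive (10.9%) and 130 negative (6.68%), with a median of 0.02, against 15.4%, 4.75% and 0.13 for all genes.

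Other groups are given in turn, some of them small and some with counts that changed with the scaling. Of 11 NMD factors smg-2 and smg-7 were positive (18.2%, against 15.4% of all genes) and had the only unadjusted p under 0.05. Under the other scalings, with DESeq2's own test or with limma 0 were positive. Of 8 SR splicing factors 4 were positive, among them rsp-5 (0.68 ± 0.10, adjusted p 1.71e-06), and 1 or 2 under the other scalings. Of 81 cytosolic ribosomal protein genes 5 were positive with TMM scaling (6.17%, below the 15.4% of all genes), and 29 had an unadjusted p under 0.05. Under the other scalings edgeR called 0 of them, while DESeq2 called 1 and limma 8. Of 188 nuclear hormone receptor genes (nhr) 18 were negative (9.57%, against 4.75% of all genes) and 4 positive (2.13%, against 15.4%). Between 27 and 33 were negative under the other scalings. Those scalings also changed the calls over all 16053 genes, to between 1084 and 1318 negative and between 1210 and 1612 positive, from 762 and 2466. nhr-48, on X, had a mean of 36.8 CPM in the smg-2 triple mutant and between 14.9 and 17.0 CPM in the other genotypes (-1.25 ± 0.19, adjusted p 2.91e-06). C-type lectin genes (clec) had 17 positive (12.8%) and 14 negative (10.5%) members of 133, and fbxa genes 11 (9.91%) and 10 (9.01%) of 111. The math and bath genes had 10 (18.5%) and 8 (14.8%) of 54, and ugt genes 8 (12.7%) and 6 (9.52%) of 63, beside the same 15.4% and 4.75% of all genes. Under the other scalings 10 to 14 clec, 4 to 6 fbxa, 4 or 5 math and bath and 5 or 6 ugt genes were positive, and 15, 10 to 12, 8 and 7 or 8 negative. Of 19 glycolytic genes the hexokinase gene hxk-1 was positive (0.84 ± 0.16, adjusted p 1.34e-04) and the lactate dehydrogenase gene ldh-1 negative (-0.46 ± 0.16, adjusted p 0.0377). That is 5.26% in each direction, against 15.4% and 4.75% of all genes. The ldh-1 call was lost without some single libraries, with an adjusted p of up to 0.0934 (without egl-9 replicate D). Of 11 genes of the endoplasmic reticulum stress response, atf-6 (-1.18 ± 0.20, adjusted p 3.05e-05) and pek-1 (-0.98 ± 0.22, adjusted p 0.00106), 2 sensors encoded on X, were negative (18.2%, against 4.75% of all genes). The BiP gene hsp-4 was positive under TMM scaling and not with DESeq2 size factors (0.29, adjusted p 0.0989).

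The same interaction with SMG-1 in place of SMG-2 was called for 575 genes (3.58%), 452 positive (2.82%) and 123 negative (0.766%). The interactions share the egl-9 and egl-9 hif-1 libraries, which cancel in the difference between them, so that this difference tests smg-2 libraries against smg-1 libraries. It was called for 2345 genes (14.6%), 1289 with the higher value in smg-2 (8.03%) and 1056 with the lower one (6.58%). Without smg-1 triple mutant replicate C, 2718 were called, 1117 higher and 1601 lower, and the smg-1 interaction was called for 692 genes, 454 positive and 238 negative. The same omission moved the median smg-2 interaction over all genes from 0.13 to -0.01. With all libraries, 922 were higher and 1490 lower under upper quartile scaling, and 1291 and 1029 with DESeq2 size factors. What this library and what the scaling changed, here and on X below, was not tested. Without smg-2 triple mutant replicate E, 796 were higher. Of the 762 genes with a negative smg-2 interaction 483 (63.4%) were among those that differed, and of the 2466 positive genes 945 (38.3%). The same smg-2 libraries enter both values, so overlap above the 14.6% of all genes is partly built in. It is no independent support for a difference from smg-1. These overlaps were counted with all libraries only. On X 379 genes were lower and 38 higher in this difference, and 479 and 39 without smg-1 triple mutant replicate C.

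Oocyte and eggshell genes differed between the NMD mutants, with 11 of 15 having the higher value in smg-2, also without smg-1 triple mutant replicate C. Their smg-1 interactions lay between -0.08 and 0.36, and 0 of 15 were called by edgeR, DESeq2 or limma, or had an unadjusted p under 0.05 in edgeR. cpg-2 had 2.28 ± 0.28 with smg-2 and 0.30 ± 0.28 with smg-1 (difference adjusted p 9.56e-07). lnp-1 had -2.40 ± 0.15 with smg-2 and 0.65 with smg-1 (adjusted p 8.35e-19), and csb-1 had -3.75 ± 0.27 and -0.23 (adjusted p 3.77e-13). All 3 differences passed without that library too. The 2 interactions of a gene in which egl-9 or egl-9 hif-1 stood apart both hold those shared libraries. hif-1 had -3.63 with smg-2 and -3.60 with smg-1 (difference -0.02, adjusted p 0.947), haf-6 -2.70 and -2.96 (0.25, adjusted p 0.381), and pph-7 2.07 and 1.86 (0.21, adjusted p 0.382). ilys-5, lowest in egl-9, had 2.31 with smg-2 and 1.24 with smg-1, and this difference passed with smg-1 triple mutant replicate C (1.08, adjusted p 7.70e-06) and without it (0.95, adjusted p 1.01e-04). The msp genes had calls with smg-1 too: of 29, edgeR called 19 for the smg-1 interaction, DESeq2 15 and limma 9. In the difference 0 msp genes had the higher value in smg-2 and 1 the lower, with a median of -0.07.

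**Figure D5:**
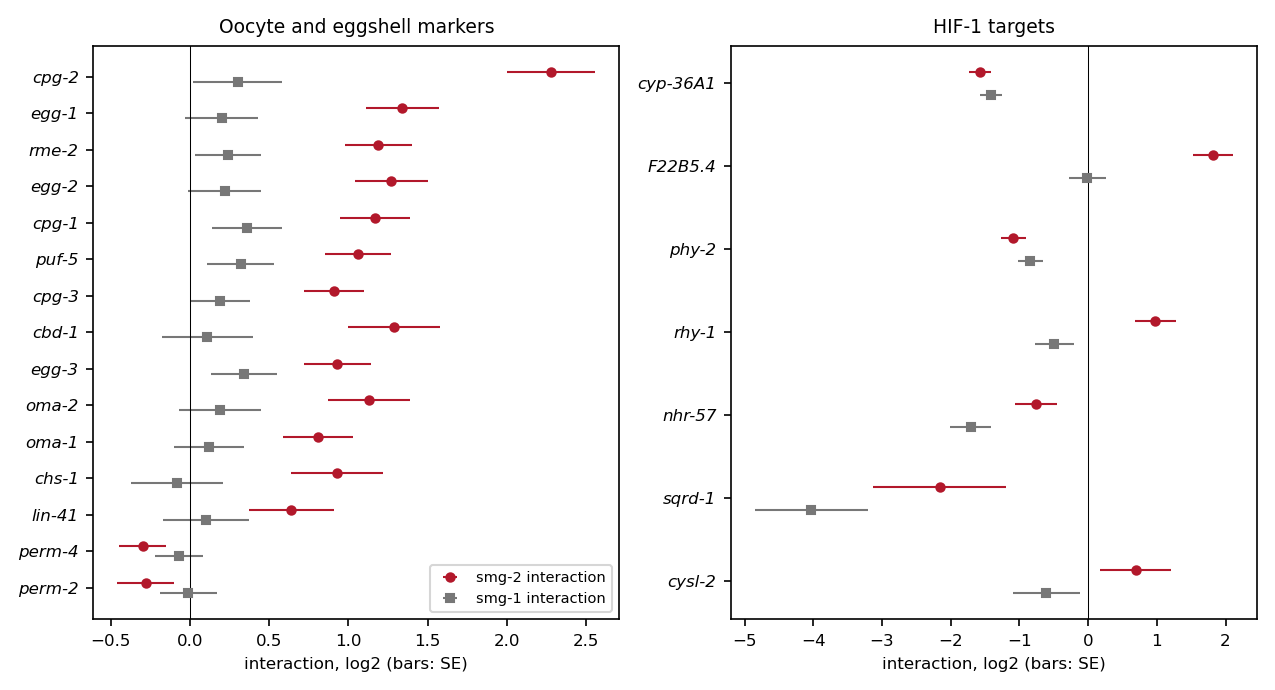
Interaction (log2, bars are SE) with smg-2 (red circles) and with smg-1 (grey squares) for 15 oocyte and eggshell markers and 7 HIF-1 targets. Among the markers 12 smg-2 values are called positive and the smg-1 values lie between -0.08 and 0.36. Among the targets the smg-1 values include the smg-1 triple mutant library that stands apart. gst-19 is not drawn because it is at the floor without HIF-1.

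Among the HIF-1 targets the comparison changed for some genes without that library. F22B5.4 differed between smg-2 (1.82) and smg-1 (-0.01) with an adjusted p of 6.45e-06, and without the library by 1.44 (adjusted p 6.47e-05). rhy-1 differed by 1.47 (adjusted p 4.32e-04) and without the library by 0.98 (adjusted p 0.00282). nhr-57 differed by 0.95 (adjusted p 0.0186), but without the library by 0.28 (adjusted p 0.165). sqrd-1 and cysl-2 did not pass with it (1.87 and 1.3, adjusted p 0.104 and 0.0761) or without it (-0.89 and -0.03, adjusted p 0.167 and 0.955). rips-1 had -1.78 ± 0.38 with smg-2 and -5.17 with smg-1, and differed with and without the library (3.39, adjusted p 2.00e-10, and 2.92, adjusted p 2.83e-11). cyp-36A1, phy-2 and mpst-3 had differences of -0.16, -0.25 and 0.02, with adjusted p of 0.527, 0.359 and 0.951, and without the library of -0.22, -0.46 and -0.20, with adjusted p of 0.309, 0.0633 and 0.328. This does not show that their interactions are equal.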

How the data were processed

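PolyA RNA of whole worms was sequenced as paired reads of 75 nt, and the 20 libraries of 4 genotypes form the interaction. The authors deposited expected counts per gene, rounded to whole numbers, and a table of log2(TPM + 1) values. Per the submitters' processing notes, the tools were FastQC, STAR 2.7.9a, RSEM 1.3.0 and DESeq2 on build WBcel235, with the strand setting of counting not given in the sources used here. Positions are from Ensembl release 115.

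From the counts, 1 model of 9 genotype means was fitted to 45 libraries (36 residual degrees of freedom) with edgeR 4.0.16 in R 4.3.3, with TMM factors, the filterByExpr filter by genotype and the two-sided quasi-likelihood F test. It tested 16053 genes, and those left out held 0.0372% of the counts. P-values were adjusted by Benjamini-Hochberg over all genes. SE is the log2 value divided by the square root of F. CPM use TMM-scaled library sizes. Total counts limit the precision of low genes, and a group at 3 counts or fewer in every library is at the floor, which covers counting error only. No pair of the 40 replicate pairs within the 4 genotypes agreed within sampling noise (chi-square per degree of freedom 9.27 to 88.5), and none was merged. The procedure was tested on simulated data.

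Named genes are the 10 positive and 10 negative with the smallest p and the 2 of smallest p in each class of HIF-1 differences. These had an adjusted p under 0.05, at least 1 in log2, a mean of at least 5 CPM and the same call with DESeq2 size factors. The mutated genes, 8 HIF-1 targets and 11 NMD factors were named in addition without these conditions. Up to 4 members of each list were named with an adjusted p under 0.05 as the only condition. lin-41, perm-2, perm-4 and the neighbour acl-4 are outside this rule and were chosen after their values were seen. The members and lists were chosen with earlier results of these data known. Alternatives were other scalings, filters, tests (DESeq2 1.42.0, limma 3.58.1 on the deposited log2 values), fewer libraries and the replicate letter as a block. TMM over autosomal genes was added after seeing the data. No sequence was used here.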

Additional observations from a re-analysis of the deposited data

Results flagged for a closer look

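The interaction was called for 3228 genes, and its difference from the smg-1 interaction for 2345, by a test of each difference itself. The log2 interactions of the 10 negative genes named by the smallest p were -3.63 for hif-1, -2.11 for gakh-1, -2.40 for lnp-1, -3.31 for C27C12.1, -2.90 for F53H4.4, -2.70 for haf-6, -3.75 for csb-1, -2.06 for fis-2, -1.21 for B0416.5 and -12.18 for txdc-12.2. The last is a fitted value that depends on the prior count, since the gene had 0 counts in the smg-2 double mutant, and is no bound. Those of the 10 positive genes were 2.33 for T24C4.5, 2.30 for C50C3.1, 1.47 for wht-7, 2.31 for ilys-5, 2.78 for Y49F6B.9, 2.93 for the pseudogene WBGene00045175, 2.13 for tofu-2, 2.07 for pph-7, 1.51 for rfth-1 and 1.63 for anat-1.

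Dixon's criterion marked a library far from the others in 11 of 163 groups of 5, and chance marks about 1 in 20. In the smg-2 triple mutant the highest library had 57.5 CPM of txdc-12.2, 18.4 CPM of T24C4.5, 51.6 CPM of pph-7, 34.4 CPM of rfth-1 and 0.0914 CPM of gst-19, the lowest had 48.8 CPM of fis-2, and the deepest had 32418868 counts. In the smg-2 double mutant the lowest library had 27.4 CPM of smg-7. In egl-9 the highest library had 47.0 CPM of T24C4.5. In egl-9 hif-1 the highest had 8.55 CPM of cyp-36A1 and 0.0405 CPM of gst-19, which is 1 count.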

How the results depend on the processing

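No called interaction of a named gene changed sign under the alternatives, but the majority direction of some counts did. So did the difference between the smg-2 and smg-1 interactions of sqrd-1 and cysl-2, which was not called, at 1.87 and 1.3 with smg-1 triple mutant replicate C and -0.89 and -0.03 without it. The interaction was positive for 1450 genes with DESeq2 size factors, 1210 with upper quartile scaling, 1307 with library totals, 1133 without a filter, 1566 with a mean of at least 5 CPM, 1128 with limma on the deposited log2 values, 1610 with DESeq2's own test and 1612 with autosomal TMM factors. It was negative for 1318 with upper quartile scaling, 1179 with totals, 1260 with limma and 1181 with DESeq2's test. At 2-fold or more it was positive for 416, 454, 436, 336 and 318 genes with upper quartile scaling, totals, no filter, the 5 CPM filter and limma, and negative for 238 with the 5 CPM filter. On X, positive genes numbered 35, 25, 28, 25, 29 and 35 with DESeq2 size factors, upper quartile scaling, totals, no filter, the 5 CPM filter and autosomal TMM, and negative genes 431 with upper quartile scaling.

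Among HIF-1-induced genes 33, 23, 30, 30, 20 and 35 were positive under those 6 settings, and with classes set by adjusted p alone 987 were positive and 328 negative. Among HIF-1-repressed genes the positive numbered 259, 261, 213, 269, 789 and 171 with upper quartile scaling, totals, no filter, the 5 CPM filter, classes by p alone and limma, and the negative 59, 20, 98, 62 and 52 with upper quartile scaling, the 5 CPM filter, classes by p alone, limma and DESeq2's test. Among NMD-sensitive genes the positive numbered 131, 132, 380 and 79 with no filter, the 5 CPM filter, classes by p alone and limma, and the negative 206 with upper quartile scaling.

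Of the differences that enter, the smg-2 double mutant minus the smg-2 triple mutant had 3022 positive and 6872 negative genes with upper quartile scaling, and egl-9 minus egl-9 hif-1 had 5331 and 2807 with limma. The smg-2 double mutant minus egl-9 had 3463 calls, 2436 of them positive and 1027 negative, with the 5 CPM filter, and 3293, 3305, 873, 3399 and 2973 negative genes with DESeq2 size factors, no filter, limma, DESeq2's test and autosomal TMM. The smg-2 triple mutant minus egl-9 hif-1 had 2426 negative genes with limma. The cause of these shifts was not tested.

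Each library of the genotypes that enter a quantity was left out in turn, which for the interaction are the 20 libraries. The ranges of the interaction thus do not cover the other libraries, such as N2 replicate C, without which its median over all genes was -0.03. Leaving out 1 library at a time gave 2231 to 3361 calls of the interaction, 1124 to 2609 positive and 682 to 1247 negative, with 411 to 940 and 397 to 575 at 2-fold. On X 23 to 66 genes were positive and 248 to 406 negative. Positive genes numbered 25 to 66 among HIF-1-induced, 210 to 643 among HIF-1-repressed and 144 to 221 among NMD-sensitive genes, and negative genes 121 to 168, 28 to 52 and 101 to 179. The difference from smg-1 had 1896 to 2718 calls, 796 to 1427 positive and 902 to 1601 negative.

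Same-letter libraries correlated over 0.1 in 16 of 30 pairs (-0.178 to 0.419), and 9 of 20 libraries correlated best with their own letter, and all 6 pairs of letter D correlated, at 0.223 to 0.419. The letters were not taken as pairs because the other pairs did not all correlate. Library numbers run in order by letter, but the labels do not say what the libraries of a letter share. With the replicate letter as a block 3983 genes were called, 3027 positive and 956 negative. With the 4 genotypes alone in the model, 2940 were called, 2282 positive and 658 negative. Depth limits the low genes, such as targets near 1 CPM without HIF-1.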

Other observations

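Along chromosome X, in 18 windows of 1 Mb, the share of tested genes with a negative interaction was 21.7% (31 of 143 genes) between 14000001 and 15000000 and 27% between 15000001 and 16000000. In the other 16 windows it lay between 7.24% and 15.6%. The windows were set apart after their values were seen, and no test was made.

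The pseudogene WBGene00007376 (II 9380106 to 9381355) had 25.5, 40.8, 42.0, 63.8 and 72.1 CPM in the smg-2 triple mutant and at most 1.73 CPM in any library of the other 3 genotypes (-5.97 ± 0.49, adjusted p 2.17e-12 in edgeR). Its exons overlap srh-48. lys-7, a lysozyme gene of the innate immune response, averaged 323 ± 33.3 CPM in the smg-2 double mutant, 269 ± 48.8 CPM in the smg-2 triple mutant, 160 ± 29.0 CPM in egl-9, against 50.1 ± 13.0 CPM in egl-9 hif-1 (-1.40 ± 0.27, adjusted p 1.84e-04). Its interaction with smg-1 was 0.57, and the difference of -1.97 passed (adjusted p 6.95e-07).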
